A study of Macaca mulatta with 10 samples.

Results

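ERK5, encoded by MAPK7, is a mitogen-activated protein kinase with its own dedicated upstream kinase. The 9 genes followed here are MAPK7, the kinases above it (MAP3K2, MAP3K3 and MAP2K5), the MEF2 transcription factors that it acts on (MEF2A, MEF2C and MEF2D), and the transcription factors KLF2 and KLF4, which lie downstream of MEF2. They were taken by gene symbol, as 9 of the 26484 genes in the deposited count table, and all 9 passed the filter of at least 10 counts summed over the libraries, which 14168 genes passed.

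In this cascade MAP3K2 and MAP3K3 phosphorylate MAP2K5, MAP2K5 phosphorylates ERK5, and active ERK5 phosphorylates MEF2 factors and drives KLF2 and KLF4. The pathway is best known from endothelial cells, where shear stress acts through it. In T cells KLF2 is known for quiescence and for the genes of recirculation, KLF4 restrains proliferation, and MEF2 factors take part in the response of NR4A genes to T cell receptor signals. RNA levels do not report the phosphorylation by which these kinases are activated.

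The RNA came from Tr1 cells, CD4+ T cells of a regulatory kind, of rhesus macaques (Macaca mulatta) that were made diabetic with streptozotocin and given islet allografts matched at one DRB allele. All 10 monkeys had transient immunosuppression with the anti-CD40 antibody 2C10R4, rapamycin, etanercept and tocilizumab; the 5 monkeys of Cohort C were also infused with apoptotic donor leukocytes (ADLs), and the 5 of Cohort B were not. Frozen peripheral blood mononuclear cells were thawed, rested overnight and flow-sorted for CD4, CD49b and LAG-3, with 1 library per monkey. The labels give no age, and place sampling at sacrifice, at rejection in Cohort B and at a 365-day end point in Cohort C, whereas the study's own account lists Cohort B monkeys 13EP12 and 13EP8 without rejection and Cohort C monkey 15CP1 as not sacrificed at 1 year.

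The libraries differed widely in size and breadth, before any comparison of cohorts. Total counts ran from 6076 to 1392157 in Cohort B (median 455470) and from 66485 to 5895609 in Cohort C (median 968423). The share of the 14168 genes with more than 3 counts ran from 1.07% to 63.5% in Cohort B and from 4.74% to 88.3% in Cohort C. Monkeys 14HP31, 15CP4 and 14HP33 stood apart, with 1.07%, 4.74% and 6.28% of genes above 3 counts; in 14HP33 the MTRNR2L genes held 87.0% of all counts. The Cohort B monkeys listed with rejection (14HP26, 14HP31 and 15CP6) are also those with the smallest Cohort B libraries, so rejection and library size cannot be told apart there. The sort markers were uneven as well. Tr1 cell markers (CD3D, CD3E, CD3G, CD2, CD4, ITGA2 for CD49b, LAG3 and IL10) summed to 0 to 1094 counts in Cohort B and 0 to 4353 in Cohort C, with all 8 above 3 counts in 13EP5 and 15CP1 and none in 14HP26, 14HP31 and 15CP4. LAG3, one of the sort markers, was above 3 counts in 3 libraries. Markers of other cells were present too. The 7 monocyte markers summed to 0 to 1550 counts in Cohort B and 0 to 6446 in Cohort C. Their sum was above that of the Tr1 cell markers in 13EP12, 13EP8, 15CP6, 14HP24 and 15CP1. It was below in 13EP5 (479 against 2654) and 14HP33 (1 against 12). VCAN alone had 4416 of the 6446 counts in 15CP1. The part of such cells in the members' counts was not tested. CD8 and NK cell markers summed to 0 to 258 counts in Cohort B and 0 to 392 in Cohort C, and relative to library size all 6 had lower values in Cohort C (median log2 fold change -2.26, none called). B cell markers summed to 0 to 102 and 0 to 396 counts. Endothelial markers summed to 0 to 1219 counts, with PECAM1, which leukocytes also express, above 3 counts in 7 libraries, TEK in 3, VWF in 2 and CDH5 in none. Housekeeping genes, 8 in all, were above 3 counts in 1 to 8 per library in Cohort B and 2 to 8 in Cohort C.

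Detection of the members differed widely between libraries. With a floor of 3 counts, Cohort B monkeys 13EP12, 13EP8, 14HP26, 14HP31 and 15CP6 had 8, 9, 2, 0 and 5 of the 9 members above it. Cohort C monkeys 13EP5, 14HP33, 14HP24, 15CP1 and 15CP4 had 9, 2, 7, 9 and 1. The cohorts overlapped, and in both the number ran from at most 1 member to all 9.

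**Figure D1:**
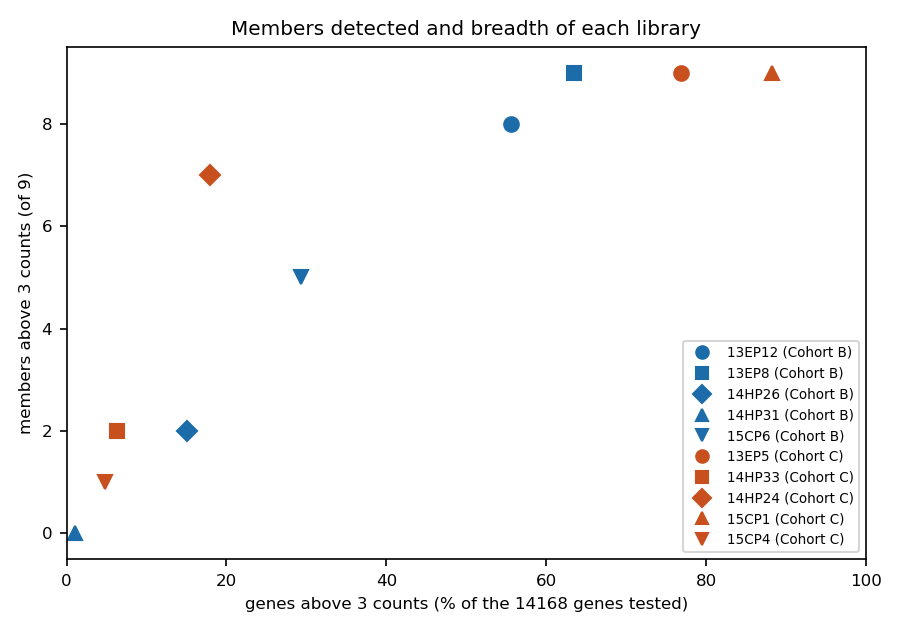
Number of the 9 members with more than 3 counts (y axis) against the percent of the 14168 tested genes with more than 3 counts (x axis), 1 point per library, blue for Cohort B and orange for Cohort C. The libraries with 63.5% or more of genes above 3 counts held all 9 members, and those with 6.28% or fewer held 0 to 2.

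Over the 5 libraries of a cohort, 24 of 45 member values were above 3 counts in Cohort B (53.3%) and 28 of 45 in Cohort C (62.2%). Over all genes tested the same shares were 32.9% and 38.8%. The cascades of the other MAP kinases, taken as 11 genes (kinases of the MAP2K and MAPK tiers), gave 24 of 55 values in Cohort B (43.6%) and 25 of 55 in Cohort C (45.5%). Monkey 14HP24 held 7 members with 18.0% of genes above 3 counts, against 3 of the 11 other MAP kinase genes.

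A chain from a MAP3K through MAP2K5 and MAPK7 to at least 1 MEF2 factor, each above 3 counts, was present in 1 of 5 Cohort B libraries, 13EP8, and in 3 of 5 Cohort C libraries, 13EP5, 14HP24 and 15CP1. Cohort B monkey 13EP12 held every member but MAPK7. The 4 libraries with the chain are those with MAPK7 itself above 3 counts. In 14HP26, 14HP31, 14HP33 and 15CP4 the floor of 3 counts lay above the MAPK7 level of 15CP1. The chain could have gone unseen there.

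MAPK7 had few counts in every library. Cohort B monkeys 13EP12, 13EP8, 14HP26, 14HP31 and 15CP6 had 0, 9, 0, 0 and 0 counts, and Cohort C monkeys 13EP5, 14HP33, 14HP24, 15CP1 and 15CP4 had 23, 0, 25, 54 and 0. Scaled to library size with TMM factors, its level was 6.88 CPM (counts relative to library size) in 13EP8, 7.17 in 13EP5, 144 in 14HP24 and 11.2 in 15CP1. The level in 14HP24 stood above the other 3, in a library of 136954 counts where the genes with at least 1 count had a median of 11 counts. The cohorts overlapped, with zeros in both.

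Not every zero of MAPK7 is informative. A count of 0 allows up to 3 counts, which is 2.60 CPM in 13EP12 and 6.64 in 15CP6, both below the 11.2 CPM of 15CP1. In 14HP26, 14HP31, 14HP33 and 15CP4 the same floor is 17.6, 119, 42.7 and 18.7 CPM, so a zero there does not exclude a level like that of 15CP1. Over all 9 members, 38 of 90 values were at 3 counts or fewer, and in 31 of these the floor lay below the gene's level in 15CP1. Floors and intervals cover counting error only. Genes well counted in 15CP1 also had zeros elsewhere. EEF1A1 had 36418 counts in 15CP1 and 0 in 14HP26, 14HP31 and 14HP33, and PPIA had 116 and 0 in 15CP1 and 13EP12. A zero with a floor below the level of 15CP1 therefore does not by itself show a lower level.

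The fitted MAPK7 log2 fold change of Cohort C over Cohort B was 4.09 (standard error 2.41; edgeR quasi-likelihood test, adjusted p = 0.357). The mean log2(CPM + 1) was 0.60 ± 1.33 (SD, n = 5) in Cohort B and 2.76 ± 2.98 (SD, n = 5) in Cohort C, a difference of 2.17 (two-sided exact permutation test, p = 0.167; 9 members were tested, and the smallest p that 252 assignments allow is 0.00794). With MAPK7 at 0 in 6 libraries many assignments tie, so the smallest p possible for MAPK7 is above 0.00794. The size of the MAPK7 change depended on single libraries. Without 14HP24 the log2 fold change was 1.48, and without 13EP8, which leaves Cohort B at 0 throughout so that the value is no bound, it was 8.44. Without 14HP31, 15CP4 and 14HP33 it was 4.71. The study names MAPK7 from these same libraries, so its direction here is not independent evidence.

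**Figure D2:**
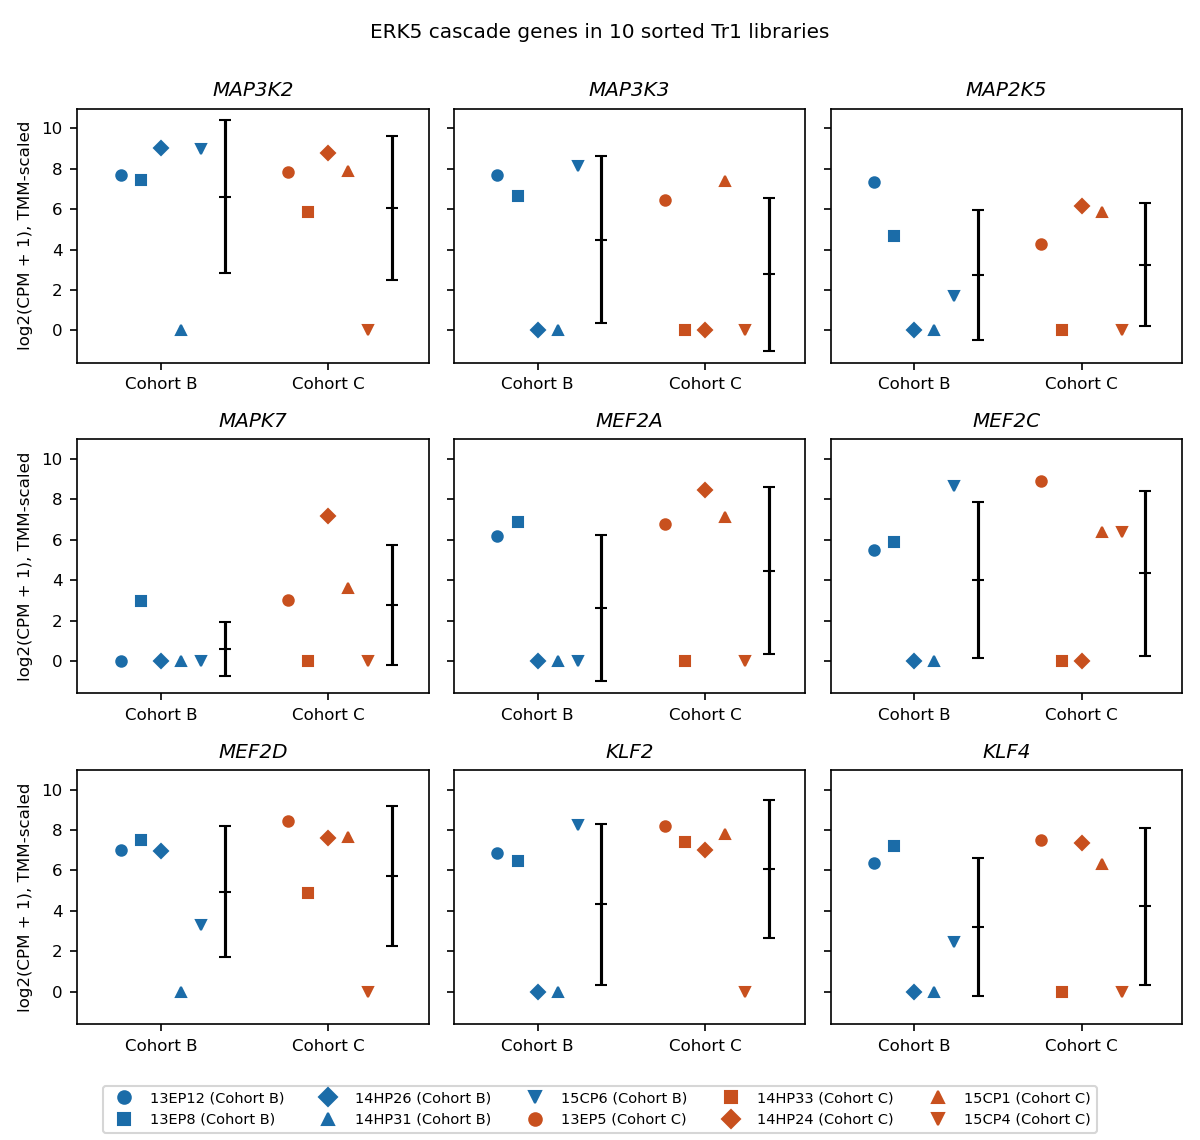
TMM-scaled log2(CPM + 1) of each member (y axis) in Cohort B (blue, n = 5) and Cohort C (orange, n = 5), 1 symbol per monkey, with the mean and SD beside each group. The cohorts overlap for all 9 members, and the zeros come mostly from 14HP31, 15CP4, 14HP33 and 14HP26.

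No member was called in the comparison of cohorts. By edgeR, 0 of the 9 members passed the study's cutoffs (unadjusted p under 0.01 and 1.5-fold or more), where 6.43% of all 14168 genes did; at a Benjamini-Hochberg adjusted p under 0.05, 0 members passed, where 0% of all genes did. None of the 9 had an unadjusted p under 0.05, against 2923 of the 14168 genes. With DESeq2, 2 genes had an adjusted p under 0.05, neither of them a member. The fit gave 6 members a higher and 3 a lower value in Cohort C, with a median log2 fold change of 0.65, beside 7586 higher and 6582 lower and a median of 0.16 over all genes. With the size factors of DESeq2 (RLE) the split was 5 and 4, and the median over all genes was -0.030, a shift of more than 0.1 that library-size scaling extended to -0.11. The split of genes called moved with the scaling too, from 152 higher and 759 lower with TMM to 515 and 1010 with RLE.

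**Figure D3:**
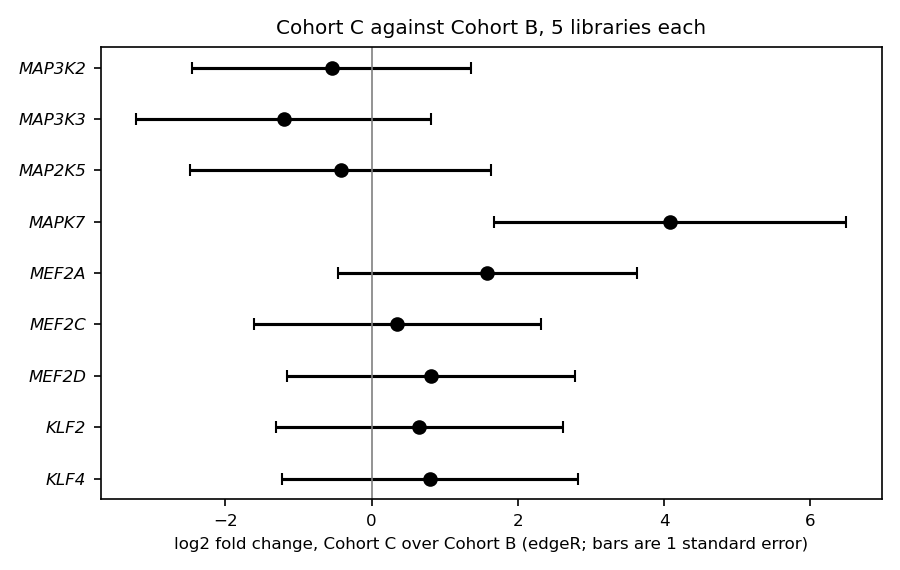
Log2 fold change of Cohort C over Cohort B for each member from edgeR (x axis), 5 libraries per cohort, with bars of 1 standard error. The bar of MAPK7 alone does not cross 0, at 4.09 with a standard error of 2.41, and no member was called.

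At the head of the cascade, MAP3K2, which activates MAP2K5, was the most widely detected member, above 3 counts in 8 of the 10 libraries, 4 in each cohort. It had 237, 228, 88, 0 and 225 counts in the Cohort B monkeys (in the order given for MAPK7) and 743, 4, 76, 1124 and 0 in the Cohort C monkeys. Among the libraries above the floor its level was 174 to 518 CPM in Cohort B and 57.0 to 439 CPM in Cohort C. The 57.0 CPM is 4 counts in 14HP33, raised by a TMM factor of 0.0725 from 4.13 CPM without it. The cohorts overlapped over most of this range, and the log2 fold change was -0.54 (standard error 1.91; edgeR, adjusted p = 0.9998), turning to 0.35 without 15CP6.

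MAP3K3, the close relative of MAP3K2 with the same substrate, had 236, 129, 0, 0 and 128 counts in Cohort B and 279, 0, 0, 800 and 0 in Cohort C. It was absent at the floor of 3 counts from 14HP24, 14HP26 and 14HP33, libraries that held MAP3K2 (with 4 counts in 14HP33). Its log2 fold change was -1.20 (standard error 2.01; edgeR, adjusted p = 0.9998). Its mean log2(CPM + 1) was 4.49 ± 4.14 (SD, n = 5) in Cohort B and 2.77 ± 3.81 (SD, n = 5) in Cohort C (two-sided exact permutation test, p = 0.365).

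MAP2K5, the dedicated kinase of ERK5, had 187, 32, 0, 0 and 1 counts in Cohort B and 58, 0, 12, 275 and 0 in Cohort C. The highest level was in Cohort B, 162 CPM in 13EP12, against 69.3 CPM in 14HP24 and 57.1 in 15CP1. The log2 fold change was -0.42 (standard error 2.06; edgeR, adjusted p = 0.9998) and became 1.91 without 13EP12, while the mean log2(CPM + 1) was higher in Cohort C by 0.51 (two-sided exact permutation test, p = 0.905). Its sign thus differed between these measures.

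Among the MEF2 factors, MEF2D was the most widely detected, in 7 libraries. It had 145, 232, 21, 0 and 4 counts in Cohort B and 1131, 2, 34, 962 and 0 in Cohort C. Its level was highest in 13EP5 at 353 CPM, with 200 CPM in 15CP1, 196 in 14HP24 and 177 in 13EP8. The log2 fold change was 0.81 (standard error 1.97; edgeR, adjusted p = 0.9998), and it turned to -0.029 with RLE size factors and -0.034 with DESeq2.

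MEF2A had 83, 155, 0, 0 and 0 counts in Cohort B and 351, 0, 60, 675 and 0 in Cohort C. Where it was present its level ran from 72.0 to 119 CPM in Cohort B and from 109 to 346 CPM in Cohort C, with the highest in 14HP24. Its log2 fold change was 1.58 (standard error 2.04; edgeR, adjusted p = 0.954), and its mean log2(CPM + 1) was 2.62 ± 3.59 (SD, n = 5) in Cohort B and 4.47 ± 4.13 (SD, n = 5) in Cohort C (two-sided exact permutation test, p = 0.365).

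MEF2C, a MEF2 factor also known from B cells, monocytes and megakaryocytes, was spread unlike the rest. It had 50, 77, 0, 0 and 180 counts in Cohort B and 1546, 0, 0, 400 and 13 in Cohort C. Monkey 13EP5 held 68.2% of all its counts, at 482 CPM, followed by 15CP6 at 398 CPM, while the other libraries above the floor had 43.4 to 83.0 CPM. MEF2C was also the single member seen in 15CP4. The log2 fold change was 0.35 (standard error 1.96; edgeR, adjusted p = 0.9998) and -1.40 without 13EP5. Platelet markers moved with this library: PPBP, PF4, ITGA2B, GP9 and TUBB1 summed to 885 counts in 13EP5, with 4 of 5 above 3 counts and GP9 at 0, and to 0 to 26 counts in the other 9 libraries. In 15CP6, the library second in MEF2C, the platelet markers summed to 0 counts, the 7 monocyte markers to 386 and the 6 B cell markers to 12. The part of such cells in the MEF2C counts was not tested. In bulk samples, fewer cells of a type and less RNA per cell cannot be told apart.

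KLF2, which maintains quiescence and directs T cell recirculation, had 132, 113, 0, 0 and 137 counts in Cohort B and 929, 12, 22, 1052 and 0 in Cohort C. In the 7 libraries above the floor its level was 86.4 to 303 CPM in Cohort B and 127 to 290 CPM in Cohort C, ranges that overlapped. Within the Cohort C range, KLF2 in 14HP33 was at 171 CPM, which is 12 counts, or 12.4 CPM without the TMM factor of 0.0725. Its log2 fold change was 0.65 (standard error 1.96; edgeR, adjusted p = 0.9998). The mean log2(CPM + 1) was 4.31 ± 3.99 (SD, n = 5) in Cohort B and 6.08 ± 3.43 (SD, n = 5) in Cohort C (two-sided exact permutation test, p = 0.357).

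KLF4, a related factor that also marks monocytes, had 93, 193, 0, 0 and 2 counts in Cohort B and 573, 0, 28, 380 and 0 in Cohort C. Its level was 80.7 and 148 CPM in 13EP12 and 13EP8, and 179, 162 and 78.9 CPM in the Cohort C monkeys 13EP5, 14HP24 and 15CP1, in turn. Its log2 fold change was 0.81 (standard error 2.02; edgeR, adjusted p = 0.9998; two-sided exact permutation test, p = 0.667). The 5 libraries with KLF4 also held monocyte markers (CD14, LYZ, S100A8, S100A9, VCAN, FCN1 and CSF1R), with 3 to 7 of 7 above 3 counts and sums of 76 to 6446 counts. They held 3 to 8 of the 8 Tr1 cell markers as well. These sums are not scaled to library size. In 15CP1, lowest of the 5 in KLF4 level, the monocyte sum was 6446 of 5895609 counts. In 13EP5 it was 479 of 3341503. In 13EP5, the highest in KLF4 level, CD14, LYZ, VCAN and CSF1R had 36, 125, 184 and 134 counts, and S100A8, S100A9 and FCN1 had none; FCN1 was above 3 counts in 1 library. The part of monocytes in the KLF4 counts was not tested. In 15CP6 the monocyte markers summed to 386 counts with KLF4 at 2.

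The mix of the members' counts differed between libraries, and this measure does not depend on the scaling. The libraries also differ in breadth, with 18.0% of genes above 3 counts in 14HP24 and 29.3% in 15CP6, against 55.6% to 88.3% in 13EP12, 13EP8, 13EP5 and 15CP1. MEF2C made up 4.30% of the 1163 member counts in 13EP12, 6.59% of 1168 in 13EP8 and 6.99% of 5722 in 15CP1, but 27.4% of 5633 in 13EP5 and 26.6% of 677 in 15CP6. MAPK7 made up 9.73% of the 257 member counts in 14HP24 and between 0.408% and 0.944% in 13EP8, 13EP5 and 15CP1. MAP3K2 ran from 13.2% to 33.2% in the 6 libraries with more than 200 member counts. Of these 6, 14HP24 had no MEF2C count. Together the 9 members held between 0.0839% (95% Wilson interval 0.0792 to 0.0888%) and 0.188% (0.166 to 0.212%) of the counts of those 6 libraries, with the lowest share in 13EP8 and the highest in 14HP24.

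**Figure D4:**
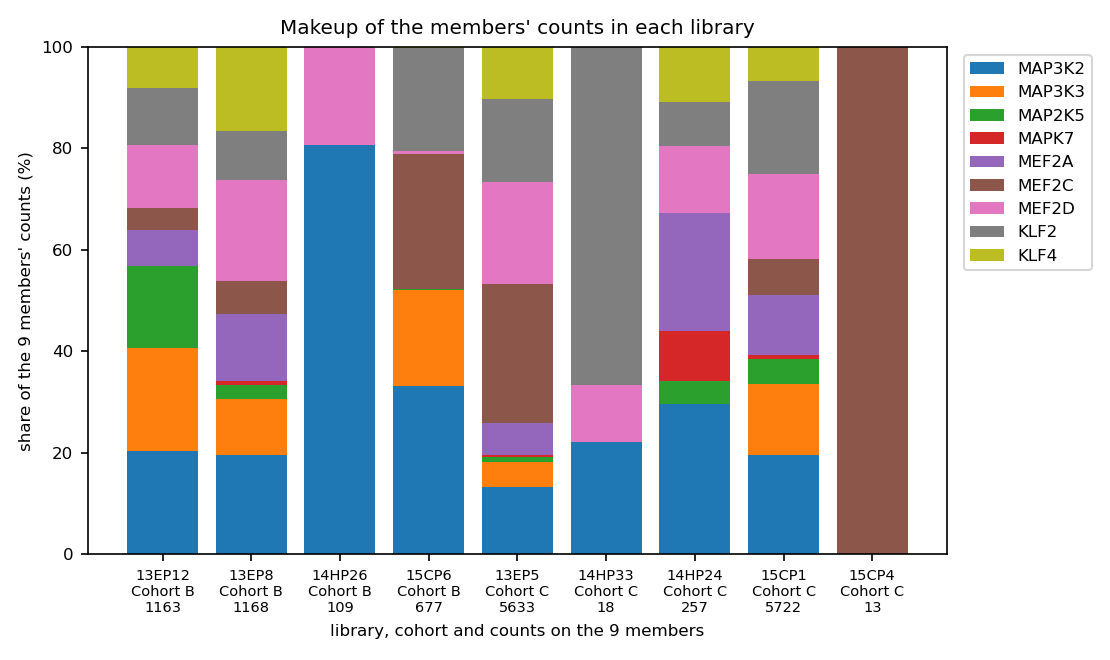
Share of each member in the counts on all 9 members (y axis, percent) for each library with at least 1 such count, labelled with monkey, cohort and the number of counts; 14HP31 had none. The MEF2C share is 27.4% in 13EP5 and 4.30 to 6.99% in 13EP12, 13EP8 and 15CP1, and the MAPK7 share is 9.73% in 14HP24.

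Levels of different genes were compared per transcript length, with the deposited FPKM values (fragments scaled to transcript length and library size). By the mean of log2(FPKM + 1) over the 10 libraries the order was KLF2 with 4.01 ± 3.58 (SD, n = 10), MEF2C with 3.06 ± 3.12, KLF4 with 2.77 ± 3.32, MAP3K2 with 2.57 ± 2.50, MEF2D with 2.54 ± 2.93, MAP2K5 with 2.37 ± 2.63, MAP3K3 with 2.25 ± 2.70, MEF2A with 1.93 ± 2.65 and MAPK7 with 0.12 ± 0.38. No neighbours in this order differed by more than the spread of their differences over the libraries. The widest steps were from MEF2A to MAPK7, with a difference of 1.81 ± 2.55 (SD, n = 10), and from KLF2 to MEF2C, with 0.95 ± 2.27. Without 13EP5, whose FPKM values are on another scale, an alternative chosen after seeing the data, KLF2 (3.32), MEF2C (2.35) and MAPK7 (0.13) kept the first, second and last places, and MAP2K5 (2.10) moved to the third, ahead of KLF4 (2.09), MAP3K2 (2.09) and MEF2D (1.88). Over all 10, KLF2 was above MEF2C in 7 libraries and below it in 1, and MEF2A was above MAPK7 in 4 and below it in none.

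The FPKM values of MAPK7 departed from its counts. MAPK7 was listed at 0 in 9 libraries and at 1.28 FPKM in 15CP1, so 3 of the 4 libraries with more than 3 MAPK7 counts (13EP8, 13EP5 and 14HP24) have an FPKM of 0. Over all members, 6 of 52 values above 3 counts were listed at 0 FPKM (11.5%), and over all genes tested 10788 of 50802 (21.2%). The 2 members held by 14HP26 were both listed at 0 FPKM. Monkey 13EP5 had the highest FPKM of 7 of the 9 members, for example 1146 for KLF2 and 700 for MEF2C, but the highest CPM of 3. Its median FPKM per CPM over genes was 1.92, against 0.0906 to 0.318 in the other 9 libraries, so the FPKM levels of 13EP5 are not on the scale of the others. Limma on log2(FPKM + 1) was run on the 10307 genes whose FPKM averaged 1 or more. It called 0% of them (adjusted p under 0.05, over 1.4-fold), and 29 genes had an unadjusted p under 0.05. The 8 members other than MAPK7, which lay below that mean, had differences of 0.15 to 1.22 between cohorts and limma adjusted p-values of 0.992 to 0.994. On this scale MEF2A, MEF2C, MEF2D, KLF2, KLF4 and MAP3K3 turned to lower values in Cohort C, between -0.93 and -0.12, when 13EP5 was left out.

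**Figure D5:**
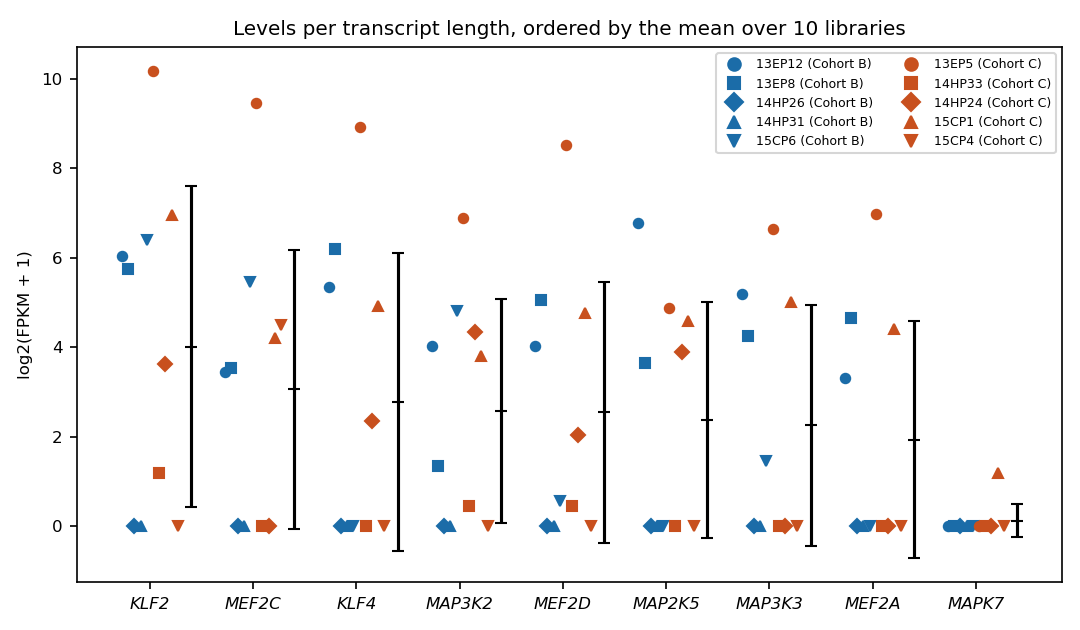
log2(FPKM + 1) of each member (y axis), ordered by the mean over the 10 libraries, with blue for Cohort B, orange for Cohort C, and bars for the mean and SD (n = 10). KLF2 has the highest mean, 4.01, and MAPK7 is listed at 0 in 9 libraries; 13EP5 lies highest for 7 of the 9 members.

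Over the 10 libraries the member most like MAPK7 in its TMM-scaled log2(CPM + 1) was MEF2A (Pearson r = 0.81), then KLF4 (0.74) and MAP2K5 (0.64), with MEF2C at -0.03. The points share their zeros, since in the small libraries most genes have none. Among 7239 genes with more than 3 counts in at least 4 libraries, the 3 most like MAPK7 were POC5 (r = 0.999), HIST1H3B (r = 0.991) and HIPK1-AS1 (r = 0.990). POC5 had 17, 54, 104 and 148 counts in 13EP8, 13EP5, 14HP24 and 15CP1 and 0 in the other 6 libraries, which are the libraries where MAPK7 was present and absent. HIST1H3B belongs to a family of near-identical histone genes and HIPK1-AS1 is antisense to HIPK1, so the counts of both are uncertain.

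Genes that feed into ERK5 gave no call. Of 15 such genes 12 were tested, 9 with a higher and 3 with a lower value in Cohort C, with a median log2 fold change of 0.77. WNK1, a kinase reported upstream of MAP3K2 and MAP3K3, had the most counts of the list (log2 fold change -0.05, standard error 1.86). Among the others with most counts were GNA13, a G protein subunit (0.47, standard error 1.92), and IL6ST, the signal-transducing receptor chain for interleukin 6 (0.61, standard error 2.02). GNA13 was above 3 counts in 7 libraries, 14HP26 and 14HP24 among them.

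Other outputs of ERK5 showed no call among 12 genes, 7 with a higher and 5 with a lower value in Cohort C and a median of 0.19. FOS, an immediate early gene, had 0 to 2107 counts in Cohort B and 2 to 6883 in Cohort C (log2 fold change 0.36, standard error 1.80). ELK4, a ternary complex factor, was at 0.29 on the same scale (standard error 1.88), CREB1 was above 3 counts in 6 libraries, and RPS6KA3, a ribosomal S6 kinase, had -0.96 (standard error 1.96). Among 8 regulators and targets of MEF2, 6 had a higher and 2 a lower value, with a median of 0.88 and none called. NR4A2 and NR4A3, nuclear receptors induced by T cell receptor signals, had log2 fold changes of 0.79 (standard error 1.87) and 1.54 (standard error 2.003). The TMM-scaled level of NR4A2 was 0 to 648 CPM in Cohort B and 85.5 to 1134 CPM in Cohort C, and that of NR4A3 was 0 to 170 and 0 to 510 CPM, with the highest level of both in 13EP5 and with cohorts that overlapped. The 85.5 CPM of NR4A2 is 6 counts in 14HP33, raised by a TMM factor of 0.0725. In Cohort B, NR4A2 was at 0 in 14HP26 and 14HP31, where the floor of 3 counts is 17.6 and 119 CPM. NR4A1, of the same family, was at 188 CPM in 13EP5 and 59.9 to 77.6 CPM in 13EP12, 13EP8 and 15CP1, with no count elsewhere, and the log2 fold change of CABIN1, a repressor that binds MEF2, was 0.04 (standard error 2.01).

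The 4 T cell trafficking genes tied to KLF2 were detected less widely than KLF2. All 4 were above 3 counts in 13EP12, 13EP8, 13EP5 and 15CP1. Only 1 was in 15CP6 and in 14HP24, and 0 in 14HP33. S1PR1, the receptor for leaving lymphoid tissue, had 278, 393, 0, 0 and 0 counts in Cohort B and 1063, 0, 0, 1282 and 0 in Cohort C, so it had no count in 15CP6, 14HP33 and 14HP24, where KLF2 was above the floor. CCR7, the lymph node homing receptor, was above 3 counts in 5 libraries, and ITGB7, an integrin chain for gut homing, in 4. All 4 genes of the list had higher values in Cohort C, with a median log2 fold change of 0.66, and none was called. In each cohort 9 of their 20 values were above 3 counts (45.0%). Over all genes tested the share was 32.9% in Cohort B and 38.8% in Cohort C. Among the other MAP kinase modules, MAP2K1, MAP2K2 and MAP2K4 had log2 fold changes of -1.72, 1.55 and 0.61, with standard errors of 2.06 to 2.08. The list of 11 had 9 higher and 2 lower values, a median of 0.61 and none called.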

How the data were processed

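The authors made stranded libraries from the RNA of sorted Tr1 cells, sequenced them as paired-end reads on a HiSeq2500, and mapped them with HISAT2 (version 2.0.2 per the labels) to the human genome hg38, so macaque reads that differ from the human sequence could be lost, which was not tested. They deposited raw counts per gene, whose counting options on strand and on reads with several matches are not given in the sources used here, and FPKM values from Cuffdiff 2.2.1. All 10 libraries were used, and the total counts per library are given with the results.

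The cohorts were compared on the counts with edgeR 4.0.16 (R 4.3.3), using TMM factors and its quasi-likelihood test. The 14168 genes whose counts summed to 10 or more were fitted, and p-values were adjusted over all of them. A gene was called where it passed the study's cutoffs (unadjusted p under 0.01, 1.5-fold or more) or, separately, an adjusted p under 0.05. The FPKM values were tested as log2(FPKM + 1) with limma 3.58.1, a scale that understates changes of low genes. Each member was also tested by an exact permutation test (two-sided, scipy 1.17.1) on log2(CPM + 1). DESeq2 1.42.0, limma-voom, other scalings and filters, and libraries left out in turn were the alternatives, 3 of them chosen after seeing the data. An index suffix in the labels marks 1 library of Cohort B and 2 of Cohort C, which is too few for values within them. The members, lists and tests were chosen with earlier results of these data known. The text names all 9 members, the 4 genes with most counts of each other list, and the 3 genes most correlated with MAPK7; some of these genes are not reported here.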

Additional observations from a re-analysis of the deposited data

Results flagged for a closer look

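In 3 of 22 groups of 5 libraries examined, the highest or lowest library lay far from the others by Dixon's test. The usual chance rate of about 1 group of 20 assumes independent normal values. That rate does not apply here, where many values are 0 and the groups share the same libraries. MAP3K2 had a log2(CPM + 1) of 0 in Cohort B monkey 14HP31, with the other 4 libraries above 0. KLF2 had a log2(CPM + 1) of 0 in Cohort C monkey 15CP4, again with the other 4 above 0. Both are libraries in which under 5% of the tested genes were above 3 counts. MAPK7 had a log2(CPM + 1) of 2.98 in Cohort B monkey 13EP8, where the other 4 libraries were at 0, so any value above 0 would have stood out.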

How the results depend on the processing

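No member was called under any alternative to the edgeR fit (DESeq2 and limma-voom among them), MAPK7 not being tested under filterByExpr, and limma on log2(FPKM + 1) called 0 genes under every alternative run. The MAPK7 log2 fold change was positive throughout, from 1.48 to 8.44, with unadjusted edgeR, DESeq2 or limma-voom p-values of 0.0223 to 0.442. The genes called over the whole table, 911, became 1525 with RLE, 10 with filterByExpr (3414 genes tested), 341 with edgeR's exact test, 69 with DESeq2, 67 with limma-voom, 98 with the index suffix as a covariate, 326 in libraries of at least 100000 counts, 207 without 14HP31, 15CP4 and 14HP33, and 76 to 695 with 1 library left out, the lowest without 13EP5 and 143 without 15CP1; leaving out 13EP12, 14HP31 or 15CP4 alone moved it by less than 1.5 times. At an adjusted p under 0.05, DESeq2 called 2 genes, the libraries of at least 100000 counts 1, and leaving out 1 library 0 to 1. The cause of these moves was not tested.

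Log2 fold changes of members that turned sign were MEF2D at -0.029 with RLE and -0.034 with DESeq2, MEF2C at -0.065 with filterByExpr, -0.33 with limma-voom and -1.40 without 13EP5, MAP2K5 at 0.36 with limma-voom, 0.051 with the index suffix, 1.91 without 13EP12 and 0.0077 without 14HP31, 15CP4 and 14HP33, and MAP3K2 at 0.35 without 15CP6. With 1 library left out, the log2 fold change ran from -1.40 to 2.13 for MEF2C, from -0.99 to 1.91 for MAP2K5 and from -1.10 to 0.35 for MAP3K2. On log2(FPKM + 1), MAP3K3 turned to -0.39 with a pseudocount of 0.1 and without 14HP26 or 14HP31, -0.03 without 15CP6, -0.93 without 13EP5 and -0.52 without 15CP1. KLF2 turned to -0.16 without 14HP26 or 14HP31 and -0.70 without 13EP5. Without 13EP5, MEF2A was at -0.49, MEF2C at -0.31, MEF2D at -0.12 and KLF4 at -0.49. With 1 library left out, the highest differences on this scale were 0.90 for MAP3K3, 1.45 for MEF2A, 2.05 for MEF2C, 2.01 for MEF2D, 1.84 for KLF2 and 1.90 for KLF4. The number of members held by 14HP26 was 2 by counts and 0 by FPKM.

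The replicate numbers name different monkeys, and same-numbered libraries did not deviate together (correlations of -0.43 to 0.38). With the replicate block 0 genes were called, and the MAPK7 log2 fold change was 4.23. In 14HP31, the smallest library, the floor of 3 counts is 119 CPM.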
